A study of Mus musculus with 31 samples.

Results

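Transcript levels were compared between 24 h and 4 h of exposure to the cytokine TGFB1 in wild-type (WT) mouse natural killer (NK) cells. The comparison covered the 9751 autosomal genes that passed a filter on low counts, of 10275 genes that passed it in the series as a whole. The filter asked for enough counts in a few libraries of any of the 9 genotype and time groups, so a gene that was high in 1 group alone could pass. The study crossed 3 genotypes with 3 conditions, unstimulated, 4 h and 24 h of TGFB1, in 31 RNA-seq libraries. The genotypes were WT, TGFBRII KO (knockout of the type II TGF-β receptor) and CIS KO (knockout of CIS, the product of Cish). WT cells had 2 libraries at 4 h (replicates 1 and 4) and 4 libraries at 24 h. The 4 unstimulated WT libraries served to sort the genes by time course. TGFBRII KO (3 libraries at each time) and CIS KO (4 at each time) also received TGFB1 for 4 h and 24 h and gave the same interval without shared libraries. The labels call the replicates biological and the NK cells sorted. The sources used here do not give the organ, strain, sex and age of the mice, the TGFB1 dose, the other cytokines in the medium or how the knockouts were made. They do not state that each replicate came from its own animal, so the p-values measure the spread between libraries. That spread was estimated over all 31 libraries, not over the 6 compared alone. No cells kept for 4 h or 24 h without TGFB1 were analysed here, so time in culture and time with TGFB1 cannot be told apart within WT.

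TGF-β binds a pair of serine-threonine kinase receptors, which phosphorylate SMAD proteins that move to the nucleus and switch genes on or off together with partner factors. Among the first genes switched on are inhibitors of the pathway itself, while changes in cell identity and in the cell cycle follow more slowly. In NK cells TGF-β is known to hold back proliferation and killing and to favour features of tissue-resident innate lymphocytes, such as the integrin CD103.

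The WT libraries held 297561 (4 h replicate 1, the shallowest of the series) and 806473 counts (4 h replicate 4) at 4 h, and 673239 to 898365 counts at 24 h. Cish, 204.2 and 289.4 CPM (counts scaled to library size with TMM factors) in WT at 4 h and 180.2 to 247.8 CPM at 24 h, lay between 35.7 and 56.1 CPM in the CIS KO libraries at both times. Counts of Tgfbr2 over the whole gene also hold reads from exons that a deletion may spare, and do not check the TGFBRII KO label. The SMAD target Pmepa1, picked after its values were seen, stood at 386.3 to 665.1 CPM in the WT libraries at 4 h and 24 h and at 6.0 to 56.2 CPM in those of TGFBRII KO. Markers of NK cells were all detected, and their summed level without TMM was 4588 to 7289 CPM at 4 h and 4041 to 4829 CPM at 24 h. Summed Y-linked transcripts (Ddx3y, Eif2s3y, Uty and Kdm5d) ran from 1.4 to 128 CPM in the WT libraries, 189 to 446 CPM in TGFBRII KO and 381 to 589 CPM in CIS KO, and Xist, made from the inactive X chromosome, from 92.3 to 198 CPM, 12.7 to 132 CPM and 0 to 5.08 CPM. In the tests between genotypes the sex of the mice and the genotype therefore cannot be told apart. Within WT, the 4 h libraries had 20.2 and 19.8 CPM of the Y-linked transcripts and the 24 h libraries 1.47 to 128 CPM. The difference between the times also depended on the level of a gene, taken as the mean over all 31 libraries. Its median was 0.185 (log2) over 586 genes under 10 CPM and -0.31 over 81 genes at 500 CPM or more. That second median was -0.09 without 4 h replicate 1, -0.48 without 4 h replicate 4 and -0.10 with sequencing depth as a covariate. The part of depth and of single libraries in results on abundant genes was not tested.

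Between 4 h and 24 h, 291 genes were higher (2.98% of those tested) and 442 were lower (4.53%), together 7.52%, at an adjusted p under 0.05 in edgeR's quasi-likelihood test. The median log2 difference was 0.84 for the genes called higher and -0.93 for those called lower, and 104 and 208 of them differed at least 2-fold. Of the genes called, 287 of 291 and 419 of 442 had all 24 h libraries above or below both 4 h libraries, against 15.3% and 13.8% of all genes tested. The same libraries made the calls, so this separation, here and for single genes below, describes the calls and adds no support. The largest differences named were also chosen for libraries that do not overlap. Of the genes called higher Itgae had the largest difference and the smallest p, and cell cycle and histone genes were among the largest falls. Leaving out 4 h replicate 1 left 90 higher and 282 lower, of which 335 calls were shared, and leaving out 4 h replicate 4 left 135 and 420, of which 243 were shared. With library size alone as the scaling, 54.4% of the calls were higher in place of 39.7%, so the balance of rises and falls depends on the scaling. By mean level over all 31 libraries, the called genes of 500 CPM or more were 0 higher and 13 lower. Since WT at 4 h had 2 libraries, many calls end when 1 library is left out: the adjusted p without each library that ends a call is given beside the gene, and gene positions are those of RefSeq on GRCm38.p6.

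**Figure D1:**
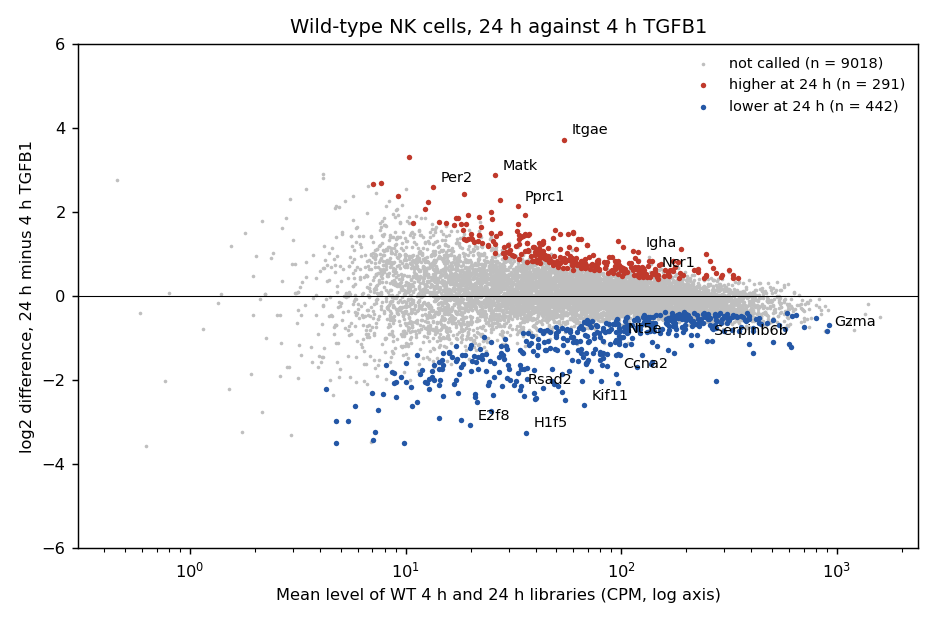
Log2 difference between 24 h and 4 h of TGFB1 in WT NK cells (vertical axis) against the mean level of the 2 groups in CPM (horizontal log axis), 1 point per autosomal gene. Red points are the 291 genes called higher, blue points the 442 called lower and grey points the genes not called. Itgae and Kif11 lie far from 0, and the blue points outnumber the red ones at the right-hand side.

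Each gene was placed in a time class from its calls at 4 h and 24 h against unstimulated cells and between the times. At 4 h against unstimulated cells 12.0% of genes were called (6.98% higher, 5.04% lower), and at 24 h 21.2% (9.75% and 11.5%). A transient gene was called at 4 h and moved back by 24 h, which held for 107 rises (1.10%) and 112 falls (1.15%). A sustained gene was called the same way at both times with no call between them, which held for 329 rises (3.37%) and 237 falls (2.43%). Late genes were not called at 4 h but were at 24 h and between the times, with 85 rises (0.872%) and 255 falls (2.62%). Continued genes moved further the same way after 4 h, with 11 rises (0.113%) and 25 falls (0.256%). The 3 comparisons share libraries, so the class sizes are descriptions. The classes also leaned on single 4 h libraries: of the 255 late falls 179 kept their class without 4 h replicate 1 and 81 without replicate 4, and of the 85 late rises 23 and 19 did, although all 85 stayed above 0 between the times.

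Mitosis and spindle genes were lower at 24 h than at 4 h in WT cells. Of the 28 genes in this list, 26 fell and 0 rose, with a median log2 difference of -1.53 against 0.01 over all genes. The range printed beside a list's median spans the fits with sequencing depth as a covariate, with library size as the scaling and without either 4 h library, and was -1.72 to -1.30 here. DESeq2 also called 26 lower and 0 higher, and at an unadjusted p under 0.05 edgeR had 27 lower and 0 higher. The summed level of the 28 genes without TMM was 2900 and 3652 CPM in the 4 h libraries and 1610, 1440, 1110 and 966 CPM at 24 h, against 4121 to 5051 CPM in unstimulated cells. The groups did not overlap. Against unstimulated cells 4 of the 28 were called lower at 4 h and all 28 at 24 h. At 4 h 26 of the 28 already lay below 0 (median -0.41), with 13 lower and 0 higher at an unadjusted p under 0.05 in edgeR. Anln and Kif20a were not called between the times. Without 4 h replicate 4 the count was 12 (median -1.30) and without replicate 1 it was 26. In bulk RNA, fewer cells in division and less of each transcript per cell cannot be told apart.

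Kif11 (chromosome 19, 37376382 to 37421863), the kinesin that pushes spindle poles apart, was at 93.9 and 137 CPM in the 4 h libraries and at 14.8, 32.4, 13.4 and 16.3 CPM at 24 h. Every 24 h library lay below both 4 h libraries, which were close to the unstimulated range of 116 to 154 CPM. The log2 difference was -2.60 ± 0.28 (adjusted p = 1.45e-07). Nuf2, a subunit of the NDC80 complex that ties kinetochores to microtubules (chromosome 1, 169497934 to 169531464), stood at 37.6 and 48.9 CPM at 4 h and 9.4, 7.55, 5.96 and 2.97 CPM at 24 h (log2 -2.75 ± 0.31, adjusted p = 4.14e-07). Ska3, of the kinetochore complex that works beside it, went from 37.6 and 36.3 CPM to 1.49 to 12.9 CPM (log2 -2.52 ± 0.45, adjusted p = 0.000315). For both genes the 4 h libraries lay above all 24 h libraries. Bub1b, a kinase-like protein of the spindle checkpoint, was at 128 and 157 CPM at 4 h and 51, 57.2, 59.6 and 54.9 CPM at 24 h, with little spread within either time (log2 -1.40 ± 0.15, adjusted p = 1.45e-07). Nusap1, which bundles spindle microtubules, was at 143 and 215 CPM and 83.3, 64.7, 44.7 and 40.1 CPM (log2 -1.69 ± 0.20, adjusted p = 5.92e-07). These 5 genes were called lower in every alternative that was run.

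Cyclin A2 was among the genes that had begun to fall by 4 h. Its gene Ccna2 (chromosome 3, 36564865 to 36573038), whose product drives cells through S phase and into mitosis, was at 244, 242, 219 and 191 CPM in unstimulated cells, 120.3 and 174 CPM at 4 h and 53.7, 50.7, 38.8 and 26.7 CPM at 24 h. The 3 groups did not overlap, and the log2 difference was -0.52 ± 0.17 at 4 h (adjusted p = 0.0359) and -1.85 ± 0.20 from 4 h to 24 h (adjusted p = 1.76e-07). Pbk, a mitotic kinase, went from 71.8 to 91.1 CPM to 22.5 and 53.9 CPM and then 2.97 to 15.1 CPM (log2 between the times -2.11 ± 0.34, adjusted p = 6.66e-05). The 4 h level of Pbk differed more than 2-fold between the libraries, and without replicate 4 the log2 difference was -1.12 (adjusted p = 0.357). Brca1, of DNA break repair, and Atp6v0a4, a proton pump subunit, had further large differences among the 25 continued falls, -1.59 ± 0.50 and -1.64 ± 0.52. The call of Brca1 was lost on leaving out libraries (adjusted p = 0.873 without 4 h replicate 4 and 0.0798 to 0.0975 without 24 h replicate 2, 3 or 4). So was that of Atp6v0a4 (adjusted p = 0.0502 and 0.746 without 4 h replicate 1 or 4 and 0.067 to 0.0964 without 24 h replicate 1, 2 or 3).

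The mitosis genes did not behave alike in the knockouts over the same interval. Over all genes 8.42% were called between the times in TGFBRII KO (4.42% higher, 4.00% lower) and 15.5% in CIS KO (7.82% higher, 7.69% lower). In TGFBRII KO 17 of the 28 rose and 0 fell (median 0.545, DESeq2 13 and 0, unadjusted p under 0.05 in 22 and 0). In CIS KO 0 rose and 0 fell (median 0.07). There, an unadjusted p under 0.05 was seen for 2 higher and 3 lower, and DESeq2 called 0. Bub1b was at 101 ± 2.74 CPM (SD, n = 3) at 4 h and 146 ± 10.4 CPM at 24 h in TGFBRII KO (log2 0.53 ± 0.12, adjusted p = 0.00379). It was at 99.5 ± 8.37 and 83.3 ± 11.7 CPM (n = 4) in CIS KO (log2 -0.24 ± 0.12, adjusted p = 0.21). Nusap1 was at 149 ± 14.8 and 279.9 ± 21.4 CPM in TGFBRII KO (log2 0.90 ± 0.15, adjusted p = 0.000138). In CIS KO it was at 115 ± 22.5 and 118 ± 10.7 CPM (log2 0.02 ± 0.16, adjusted p = 0.97).

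The difference between the genotypes was tested as an interaction. Over all genes, the WT change differed from that of TGFBRII KO for 6.41% (2.51% above, 3.90% below). It differed from that of CIS KO for 1.05% (0.0513% above, 0.995% below). For the mitosis list, 26 of 28 WT changes lay below those of TGFBRII KO and 23 of 28 below those of CIS KO, with 0 above in either. Those counts were 17 and 2 without 4 h replicate 4. In both tests DESeq2 gave the same numbers as edgeR on all libraries, and at an unadjusted p under 0.05 there were 28 and 27 below with 0 above. Kif11 differed by -3.12 ± 0.33 from TGFBRII KO (adjusted p = 5.89e-08) and by -2.14 ± 0.35 from CIS KO (adjusted p = 0.000342, and 0.25 without 4 h replicate 4). Nuf2 differed by -3.39 ± 0.38 (adjusted p = 1.77e-07) and -3.01 ± 0.40 (adjusted p = 2.26e-05, and 0.0524 without 4 h replicate 4). At 4 h Kif11 was at 75.9 ± 19.7 CPM and Nuf2 at 16.9 ± 5.17 CPM in CIS KO, against 93.9 and 137 CPM and 37.6 and 48.9 CPM in WT. The difference between the genotypes at 4 h was not tested.

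**Figure D2:**
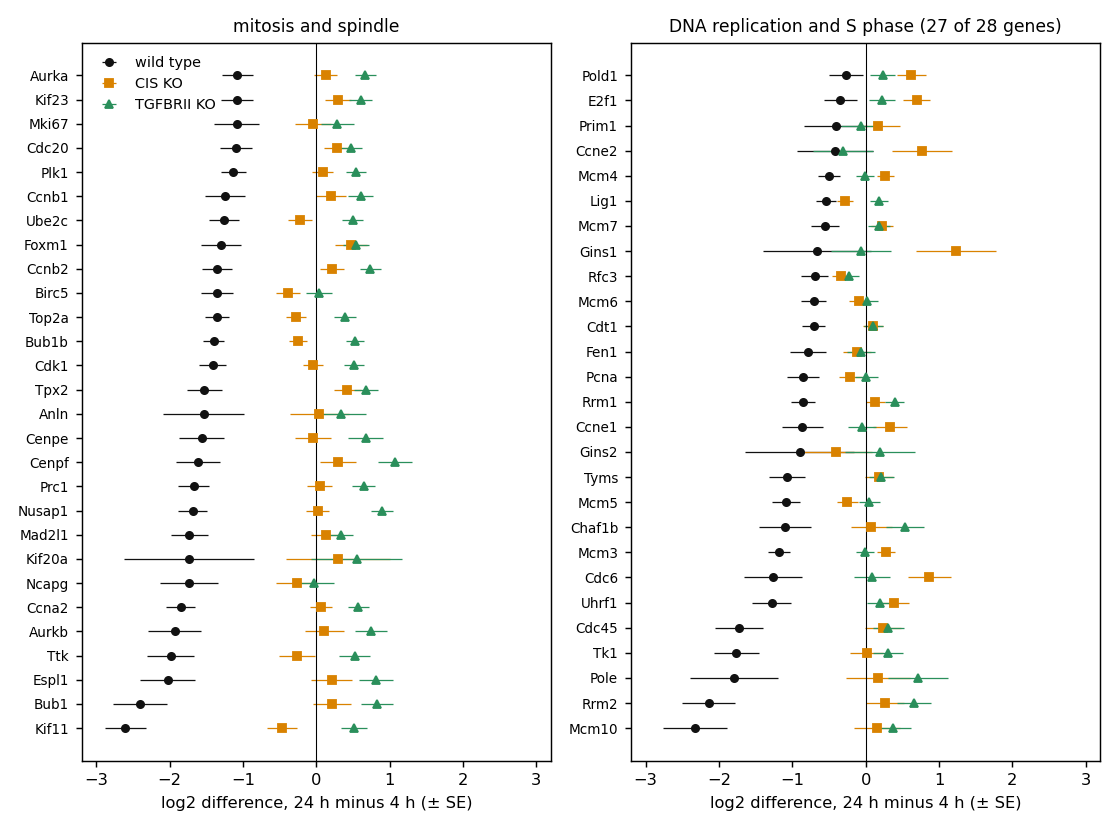
Log2 difference between 24 h and 4 h (horizontal axis, ± standard error) for each gene of the mitosis list (left) and 27 of the 28 genes of the S phase list (right), in WT (circles), CIS KO (squares) and TGFBRII KO (triangles). The WT points of every gene shown lie below 0, those of 27 of 28 mitosis genes in TGFBRII KO lie above 0, and those of CIS KO lie on both sides.

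Promoter sequences of some mitosis genes are shown because these genes moved together and are known to share a pair of elements. Cell cycle genes of this kind are repressed in resting cells through the CHR element (TTTGAA, read by the DREAM complex, with B-MYB and FOXM1 in dividing cells) that sits downstream of CCAAT boxes bound by NF-Y. Promoters from 250 bases before to 50 bases after the start were taken from RefSeq on GRCm38.p6 and searched on both strands for TTTGAA and for CCAAT. Of the 28 genes, 23 had an entry, and TTTGAA was in 17 of them (73.9%) against 18.1% of all 27025 promoters of that length. CCAAT was in 19 of 23 (82.6%) against 37.9%, and both were in 69.6% against 7.10%. Within the list, the median difference between 24 h and 4 h was -1.40 for the 17 genes with TTTGAA and -1.62 for the 6 without. A promoter counts for each motif it holds, also where their letters overlap. The stretches below run 5′ to 3′ on the strand of the gene from 120 bases before its start to 10 after, with matches to TTTGAA or CCAAT on either strand in capitals. Cdc20, Espl1, Prc1 and Kif23 were chosen after their values were seen, for matches in this stretch. 
Kif11, chr19:37376262-37376391 (+ strand): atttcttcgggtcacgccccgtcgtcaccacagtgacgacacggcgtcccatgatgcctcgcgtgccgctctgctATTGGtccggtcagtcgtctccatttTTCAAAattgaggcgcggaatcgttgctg
Espl1, chr15:102296173-102296302 (+ strand): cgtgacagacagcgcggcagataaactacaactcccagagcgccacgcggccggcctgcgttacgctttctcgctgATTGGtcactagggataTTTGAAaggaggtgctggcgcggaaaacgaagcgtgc
Prc1, chr7:80294331-80294460 (+ strand): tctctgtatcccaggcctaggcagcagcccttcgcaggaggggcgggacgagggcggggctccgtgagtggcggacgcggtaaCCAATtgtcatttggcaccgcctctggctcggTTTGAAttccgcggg
Cdc20, chr4:118437334-118437463 (− strand): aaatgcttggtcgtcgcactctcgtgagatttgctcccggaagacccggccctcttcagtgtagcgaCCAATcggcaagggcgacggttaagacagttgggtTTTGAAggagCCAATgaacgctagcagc
Kif23, chr9:61946790-61946919 (− strand): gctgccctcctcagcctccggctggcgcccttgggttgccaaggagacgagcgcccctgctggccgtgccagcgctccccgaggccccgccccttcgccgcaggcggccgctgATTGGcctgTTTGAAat

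In each of the 5 stretches a CCAAT box precedes a CHR, and in Kif11 both stand in reverse orientation. Espl1 encodes separase, which cuts cohesin at anaphase, Prc1 bundles the midzone microtubules, Cdc20 activates the anaphase-promoting complex, and Kif23 is a kinesin of cytokinesis. Espl1 was at 60.1 and 46.3 CPM at 4 h and 14.8, 15.1, 8.94 and 8.9 CPM at 24 h (log2 -2.03 ± 0.37, adjusted p = 0.000425). Prc1 was at 116 and 143 CPM and 65.8, 39.9, 29.8 and 31.2 CPM (log2 -1.67 ± 0.21, adjusted p = 2.12e-06). For both genes all 24 h libraries lay below the 4 h libraries. Cdc20 had a log2 difference of -1.09 ± 0.21 (adjusted p = 0.000974, and 0.229 without 4 h replicate 4) and Kif23 one of -1.08 ± 0.22 (adjusted p = 0.00138, and 0.308 without 4 h replicate 4).

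DNA replication and S phase genes were also lower at 24 h. Of 28 genes, 18 fell and 0 rose (median -0.86, range -1.08 to -0.72, DESeq2 16 and 0, unadjusted p under 0.05 in 22 and 0), and all 28 values lay below 0. At 4 h against unstimulated cells 4 of these genes were called lower and 26 lay below 0 (median -0.43). There, 11 were lower and 0 higher at an unadjusted p under 0.05 in edgeR. The summed level without TMM, over 30 genes of which 2 were not tested, was 2063 and 2491 CPM at 4 h. At 24 h it was 1630, 1483, 1367 and 1108 CPM, so the groups did not overlap. The count of falls was 14 without 4 h replicate 1 and 7 without replicate 4. Rrm2, the regulated subunit of ribonucleotide reductase (chromosome 12, 24708254 to 24714146), was at 48.9 and 42.6 CPM at 4 h and 13.4, 8.63, 14.9 and 2.97 CPM at 24 h (log2 -2.14 ± 0.36, adjusted p = 0.000108). Tk1, thymidine kinase, was at 60.1 and 61.4 CPM and 25.5, 19.4, 17.9 and 7.42 CPM (log2 -1.76 ± 0.30, adjusted p = 0.000167). Both genes showed 4 h libraries close together and well above every 24 h library. Mcm3 and Mcm5, subunits of the replicative helicase, also fell. Mcm3 went from 210.4 and 197 CPM to 73 to 106 CPM (log2 -1.18 ± 0.15, adjusted p = 3.11e-06), and Mcm5 from 124 and 130.3 CPM to 37.1 to 80.6 CPM (log2 -1.09 ± 0.19, adjusted p = 0.000267). E2f8, an E2F repressor that is itself made in S phase, and Esco2, which acetylates cohesin, were among the genes with the largest falls, -3.07 ± 0.50 (adjusted p = 6.66e-05) and -2.94 ± 0.50 (adjusted p = 0.000123). E2f8 was at 15 and 55.1 CPM at 4 h and 2.69 to 7.55 CPM at 24 h. Esco2 was at 26.3 and 37.6 CPM at 4 h and 1.48 to 7.55 CPM at 24 h. Both calls were lost without 4 h replicate 4 (adjusted p = 0.401 and 0.0654).

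In the knockouts few S phase genes were called between the times. In TGFBRII KO 1 of 28 rose and 0 fell (unadjusted p under 0.05 in 3 and 0, DESeq2 0 and 0), and in CIS KO 3 rose and 0 fell (unadjusted 6 higher and 2 lower, DESeq2 2 and 0). The WT change lay below that of TGFBRII KO for 16 of 28 genes and below that of CIS KO for 11 (5 and 1 without 4 h replicate 4). Mcm3 was at 236 ± 9.11 CPM (SD, n = 3) and 235 ± 24 CPM in TGFBRII KO (log2 -0.01 ± 0.12) and at 158 ± 15 CPM (n = 4) and 189.9 ± 14.9 CPM in CIS KO (log2 0.28 ± 0.12). Its WT change differed by -1.17 ± 0.20 from that of TGFBRII KO (adjusted p = 0.000102) and by -1.45 ± 0.19 from that of CIS KO (adjusted p = 2.26e-05). Chek1, the checkpoint kinase of stalled forks, changed in opposite directions in WT and CIS KO. In WT it was at 15 and 25.1 CPM at 4 h and 4.45 to 10.4 CPM at 24 h (log2 -1.64 ± 0.42, adjusted p = 0.0123). In CIS KO it was at 10.9 ± 4.15 CPM and 24.8 ± 3.67 CPM (log2 1.15 ± 0.31, adjusted p = 0.0112). The interaction was -2.79 ± 0.53 (adjusted p = 0.00194, and 0.618 without 4 h replicate 4), and the adjusted p of the WT change was 0.489 without 4 h replicate 4.

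Replication-dependent histone genes made up much of the top of the list of falls. This gene set was assembled after the results were seen, from the symbol series H1f, H2ac, H2bc, H3c and H4c. Of 24 such genes tested, 13 fell and 0 rose (median -2.05, range -2.19 to -1.02), and 22 of the 24 lie on chromosome 13 between 21716412 and 23762386. H4f16, a histone H4 gene on chromosome 6 outside these series, was called higher. Their transcripts are made in S phase and mostly lack a poly(A) tail, and copies of a family are near-identical, so reads may be split or lost between copies. H1f5, a linker histone (chromosome 13, 21779832 to 21780625), was at 30.1 and 99 CPM at 4 h and 6.71, 6.47, 8.94 and 10.4 CPM at 24 h (log2 -3.25 ± 0.40, adjusted p = 9e-07). The 4 h libraries differed more than 3-fold from each other but both lay above all 24 h libraries, and without replicate 4 the log2 difference was -1.89 (adjusted p = 0.128). H2ac11 (chromosome 13, 22042478 to 22042949) was at 22.5 and 16.3 CPM and 2.69, 1.08, 4.47 and 4.45 CPM (log2 -2.53 ± 0.49, adjusted p = 0.000754). H2ac22 was at 22.5 and 27.6 CPM and 4.03, 2.16, 1.49 and 5.93 CPM (log2 -2.91 ± 0.45, adjusted p = 3.72e-05). Both H2A genes were called in every alternative. H3c3 was at 0 and 35.1 CPM, so that its fall of -3.49 ± 0.60 (adjusted p = 0.000176) rested on replicate 4 alone, and its value turned to 3.65 without it. H2bc12 had 3 counts over the 24 h libraries, a ratio of 4 h over 24 h of 12.3 (95% interval 3.37 to 67.2) and an adjusted p of 0.00891 (0.07 without 4 h replicate 4). The whole set counted 12 falls without 4 h replicate 1 and 4 without replicate 4.

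Stretches upstream of H1f5 and H2ac11 are shown for their CCAAT boxes. Of the 24 genes, 21 had a promoter entry, with CCAAT in 90.5% (37.9% of all promoters), TTTGAA in 52.4% (18.1%) and both in 52.4% (7.10%). The 2 stretches do not stand for the set in TTTGAA, which 11 of the 21 promoters held. Both stretches held a pair of CCAAT boxes (capitals) and no TTTGAA.
H1f5, chr13:21780616-21780745 (− strand): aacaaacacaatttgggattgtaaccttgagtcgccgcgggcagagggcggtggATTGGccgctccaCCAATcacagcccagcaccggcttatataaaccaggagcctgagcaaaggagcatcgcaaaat
H2ac11, chr13:22042940-22043069 (− strand): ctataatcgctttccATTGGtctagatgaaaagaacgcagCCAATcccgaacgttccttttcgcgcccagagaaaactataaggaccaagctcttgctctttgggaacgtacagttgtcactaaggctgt

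In TGFBRII KO 1 histone gene rose and 0 fell between the times, and in CIS KO 2 rose and 5 fell. The WT change lay below that of TGFBRII KO for 14 of 24 genes and below that of CIS KO for 2, H1f5 and H2ac22 (4 and 0 without 4 h replicate 4). H2ac11 fell in CIS KO too, from 11.8 ± 4.51 to 4.8 ± 0.974 CPM (n = 4, log2 -1.32 ± 0.39, adjusted p = 0.0195). In TGFBRII KO it was at 19.9 ± 2.83 and 28 ± 5.17 CPM (n = 3, log2 0.48 ± 0.28, adjusted p = 0.331).

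Late rises were led by Itgae (chromosome 11, 73090505 to 73147449), the αE chain of the integrin CD103 that binds E-cadherin on epithelium. Itgae was at 5.08, 1.25, 4.19 and 6.91 CPM in unstimulated cells, 7.52 and 7.52 CPM at 4 h and 67.1, 112, 119 and 107 CPM at 24 h. Every 24 h library lay far above all the others, and the 4 h libraries overlapped no 24 h library (log2 3.72 ± 0.44, adjusted p = 7.18e-07). In CIS KO Itgae went from 11.7 ± 3.69 to 56 ± 20.7 CPM (log2 2.19 ± 0.32, adjusted p = 1.7e-05), and in TGFBRII KO it was at 2.04 ± 0.528 and 2.05 ± 1.91 CPM. The WT change differed from that of TGFBRII KO by 3.76 ± 1.18 (adjusted p = 0.0479) and from that of CIS KO by 1.54 ± 0.64 (adjusted p = 0.567). The first of these lay just inside the threshold and was lost on leaving out most single libraries (adjusted p = 0.0516 to 0.15 without single libraries of WT 4 h, WT 24 h, TGFBRII KO 4 h or TGFBRII KO 24 h), with the few counts of Itgae in TGFBRII KO.

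Matk (chromosome 10, 81252935 to 81262985), a kinase that phosphorylates the inhibitory tail of Src family kinases, was at 0 and 8.77 CPM at 4 h and 64.5, 51.8, 47.7 and 26.7 CPM at 24 h (log2 2.88 ± 0.51, adjusted p = 0.000254). The unstimulated libraries, 3.75 to 5.53 CPM, lay between the 4 h libraries. Matk also rose in CIS KO, from 4.38 ± 1.97 to 22.5 ± 2.24 CPM (log2 2.31 ± 0.47, adjusted p = 0.000989). In TGFBRII KO it was at 1.56 ± 1.36 and 4.78 ± 3.53 CPM (log2 1.45 ± 0.76, adjusted p = 0.269), and the interaction of 1.43 ± 1.13 did not pass (adjusted p = 0.515). Itgae and Matk were called in every alternative.

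S1pr3, a receptor for sphingosine-1-phosphate, and Per2, a repressor of the circadian clock, were among the late rises with more than 3 counts at 4 h. S1pr3 was at 7.52 and 10 CPM at 4 h and 44.3, 46.4, 52.2 and 41.5 CPM at 24 h (log2 2.28 ± 0.46, adjusted p = 0.00138). Per2 was at 3.76 and 3.76 CPM at 4 h, below the unstimulated 4.14 to 16.2 CPM, and at 25.5, 32.4, 17.9 and 16.3 CPM at 24 h (log2 2.59 ± 0.56, adjusted p = 0.00244). Per2 moved the other way in TGFBRII KO without a call (log2 -0.88 ± 0.35, adjusted p = 0.116), and the interaction was 3.48 ± 0.66 (adjusted p = 0.000514). Tspoap1 was at 15 and 15 CPM at 4 h and 72.5, 71.2, 43.2 and 38.6 CPM at 24 h (log2 1.92 ± 0.40, adjusted p = 0.00172). Btbd2 was at 7.52 and 5.01 CPM and 26.7 to 38.9 CPM (log2 2.42 ± 0.57, adjusted p = 0.00589). All 4 genes had 24 h libraries above both 4 h libraries, and all 4 calls were lost without 4 h replicate 4 (adjusted p = 0.0572, 0.115, 0.0886 and 0.193). H4f16, the histone H4 gene named above, and Tbc1d32, further late rises, were close to the detection limit at 4 h. H4f16 had 2 counts there, a ratio of 24 h over 4 h of 6.7 (95% interval 1.73 to 57.4) and an adjusted p of 0.0385 (0.164 and 0.141 without 4 h replicate 1 or 4 and 0.0589 and 0.0598 without 24 h replicate 1 or 4). Tbc1d32 had 3 counts, a ratio of 5.53 (95% interval 1.78 to 27.8) and an adjusted p of 0.0305 (0.0869 and 0.329 without 4 h replicate 1 or 4 and 0.0529 and 0.052 without 24 h replicate 1 or 2). Clic5, of the chloride intracellular channel family, was at 3.76 and 5.01 CPM and 12.1 to 28.1 CPM (log2 2.08 ± 0.67, adjusted p = 0.0492, and 0.164 and 0.262 without 4 h replicate 1 or 4 and 0.115 and 0.0822 without 24 h replicate 2 or 3).

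Of the 85 late rises, 44 also rose in CIS KO between the times and 0 fell, while in TGFBRII KO 7 rose and 4 fell. In CIS KO the share higher over all genes was 7.82% and in TGFBRII KO 4.42%. These knockout changes share no library with the rule that made the class. Of the 255 late falls, 69 fell and 3 rose in CIS KO, and 8 fell and 50 rose in TGFBRII KO.

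Continued rises were few, 11 genes, and most had been near 0 in unstimulated cells. Igha (chromosome 12, 113256204 to 113260236), the constant region of IgA, whose unrearranged transcript TGF-β is known to induce in B cells, was at 0, 1.25, 0 and 2.76 CPM in unstimulated cells, 93.9 and 68.9 CPM at 4 h and 185, 152, 174 and 122 CPM at 24 h. Pacsin1, a membrane-bending protein (chromosome 17, 27655591 to 27711118), followed the same course with 0, 2.5, 0.838 and 0 CPM, 60.1 and 80.2 CPM and 138, 181, 165 and 138 CPM. For both genes the 3 groups did not overlap. The ratio of 24 h over unstimulated was 185-fold (95% interval 63 to 901) for Igha and 184-fold (95% interval 62.6 to 895) for Pacsin1, each from 3 counts in unstimulated cells. Between 4 h and 24 h the log2 differences were 1.05 ± 0.25 for Igha (adjusted p = 0.00781) and 1.08 ± 0.24 for Pacsin1 (adjusted p = 0.00462). Without 4 h replicate 4 Igha was at 0.76 (adjusted p = 0.244), and without replicate 1 Pacsin1 was at 0.95 (adjusted p = 0.0558).

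Gpr155, a lysosomal cholesterol sensor (chromosome 2, 73341506 to 73386521), was at 30.1 and 25.1 CPM at 4 h and 47, 83.1, 74.5 and 72.7 CPM at 24 h (log2 1.39 ± 0.33, adjusted p = 0.00674), up from 0 to 2.54 CPM in unstimulated cells. Rnase6, a secreted ribonuclease, was at 15 and 8.77 CPM and 45.7, 34.5, 46.2 and 26.7 CPM (log2 1.84 ± 0.52, adjusted p = 0.0263). Slc4a11, a membrane transporter, was at 15 and 7.52 CPM and 49.7, 47.5, 31.3 and 25.2 CPM (log2 2.01 ± 0.52, adjusted p = 0.0145). In all 3 genes the 24 h libraries lay above the 4 h libraries, and all 3 calls were lost without 4 h replicate 4. The adjusted p was 0.169 without 4 h replicate 4 for Gpr155, 0.325 without 4 h replicate 4 for Slc4a11 and 0.0645 and 0.341 without 4 h replicate 1 or 4 and 0.054 and 0.0516 without 24 h replicate 1 or 3 for Rnase6. In CIS KO 10 of the 11 continued rises rose between the times (7.82% of all genes did), and in TGFBRII KO 1 did (4.42%), with 0 falls in either. Igha went from 56.3 ± 3.76 to 153 ± 24 CPM in CIS KO (log2 1.42 ± 0.20, adjusted p = 1.7e-05) and was at 3.08 ± 2.38 and 2 ± 2.46 CPM in TGFBRII KO. Markers that define B cells were at 0 in the WT libraries for 5 of 13 genes (Ms4a1, Ighd, Igkc, Pax5 and Blnk). The summed level of all 13 without TMM was 21.8 to 36.1 CPM in unstimulated cells, 164.7 and 197.2 CPM at 4 h and 259.7 to 343.7 CPM at 24 h. Igha and Ighm made up most of that sum. Ighm was at 90.2 and 130.3 CPM at 4 h and 153, 142, 164 and 139 CPM at 24 h and was not called between the times (log2 0.35 ± 0.22, adjusted p = 0.349).

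Transient rises were high at 4 h and lower at 24 h. Rsad2 (chromosome 12, 26442743 to 26456452), the antiviral protein viperin, was at 10.2, 13.7, 10.1 and 5.53 CPM in unstimulated cells, 63.9 and 48.9 CPM at 4 h and 10.7, 7.55, 10.4 and 17.8 CPM at 24 h. The 24 h libraries lay in the range of the unstimulated ones but for the highest, and below both 4 h libraries (log2 -2.23 ± 0.34, adjusted p = 3.94e-05). In CIS KO it went from 65.3 ± 11.4 to 14.6 ± 4.22 CPM (log2 -2.04 ± 0.26, adjusted p = 1.97e-06), and in TGFBRII KO it was at 11.4 ± 2.98 and 11.4 ± 3.99 CPM. The WT change differed from that of TGFBRII KO by -2.24 ± 0.53 (adjusted p = 0.00639). Among the 14 type I interferon response genes, Rsad2 fell and Irf7, a transcription factor of that response, rose (log2 1.39 ± 0.33, adjusted p = 0.00606, and 0.138 without 4 h replicate 4). The list median was -0.38 (range -0.36 to 0.19), and it lay above 0 without 4 h replicate 4.

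Nt5e (chromosome 9, 88327609 to 88372089), the ectoenzyme CD73 that makes adenosine, was at 8.9, 12.5, 7.54 and 11.1 CPM in unstimulated cells, 154 and 114 CPM at 4 h and 52.4, 70.1, 56.6 and 74.2 CPM at 24 h. It fell back in part: the 24 h libraries lay below both 4 h libraries (log2 -1.01 ± 0.21, adjusted p = 0.00157) and above all unstimulated ones (log2 2.68 ± 0.24, adjusted p = 8.02e-11). Rgs2, which quenches G-protein signals, behaved likewise with 60.8 to 66.2 CPM, then 199 and 192 CPM, then 103, 107, 106 and 137 CPM (log2 between the times -0.78 ± 0.15, adjusted p = 0.000549). Tgif1 (chromosome 17, 70844205 to 70853532), a SMAD co-repressor, was at 150.3 and 122 CPM at 4 h and 65.8, 54, 56.6 and 59.4 CPM at 24 h, the unstimulated range being 56.2 to 64.9 CPM (log2 -1.15 ± 0.13, adjusted p = 5.37e-07). Rsad2, Nt5e, Rgs2 and Tgif1 were called in every alternative. All 4 also fell in CIS KO, with log2 differences of -0.92 ± 0.16 for Nt5e (adjusted p = 0.000205), -0.64 ± 0.12 for Rgs2 (adjusted p = 0.000331) and -0.70 ± 0.11 for Tgif1 (adjusted p = 5.35e-05).

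Other transient rises rested on 1 of the 4 h libraries. Ankrd37, a target of hypoxia-inducible factor, was at 48.9 and 132 CPM at 4 h and 6.71, 16.2, 17.9 and 35.6 CPM at 24 h (log2 -2.48 ± 0.36, adjusted p = 1.88e-05). Pde4d, a cAMP phosphodiesterase, was at 30.1 and 108 CPM and 14.8, 16.2, 11.9 and 26.7 CPM (log2 -2.20 ± 0.37, adjusted p = 0.000103). Marcksl1, an actin-binding protein, was at 15 and 42.6 CPM and 0 to 10.8 CPM (log2 -2.32 ± 0.47, adjusted p = 0.00157). In each the second 4 h library, replicate 4, was the highest by more than 2-fold, and without it the log2 differences were -1.38 (adjusted p = 0.223), -0.79 (adjusted p = 0.536) and -1.18 (adjusted p = 0.498). Ankrd37 fell in the knockouts as well (log2 -0.97 ± 0.24 in TGFBRII KO, adjusted p = 0.00939, and -1.79 ± 0.27 in CIS KO, adjusted p = 2.4e-05), and its level at 4 h in TGFBRII KO was 144 ± 16.6 CPM (SD, n = 3). Of the 15 hypoxia response genes, Ankrd37 and Mxi1 fell and 0 rose (median -0.34, range -0.52 to 0.39, and 0.39 without 4 h replicate 4). Mxi1, a MYC antagonist, was at 56.4 and 127 CPM and 40.3 to 68.3 CPM, and its call was lost without replicate 4 (adjusted p = 0.853). Gpr183, an oxysterol receptor, was at 15 and 21.3 CPM at 4 h and 0 to 7.45 CPM at 24 h (log2 -2.61 ± 0.69, adjusted p = 0.0153, and 0.27 without replicate 4). Rgs1, a relative of Rgs2, was at 489 and 247 CPM and 105 to 203 CPM (log2 -1.06 ± 0.22, adjusted p = 0.00172), with replicate 1 the higher and an adjusted p = 0.154 without it.

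Of the 107 transient rises, 80 fell in CIS KO between the times and 0 rose, and in TGFBRII KO 12 fell and 3 rose. Over all genes 7.69% fell and 7.82% rose in CIS KO, and 4.0% fell and 4.42% rose in TGFBRII KO. Without 4 h replicate 1 the class held 40 genes, 34 of them shared, and without replicate 4 it held 292, 54 of them shared.

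Transient falls were low at 4 h and higher again at 24 h. Pprc1 (chromosome 19, 46056526 to 46072909), a transcriptional coactivator related to PGC-1, was at 54.6, 64.9, 39.4 and 44.2 CPM in unstimulated cells, 11.3 and 12.5 CPM at 4 h and 65.8, 57.2, 53.7 and 40.1 CPM at 24 h. The 24 h and unstimulated libraries overlapped and the 4 h libraries lay below both (log2 2.15 ± 0.33, adjusted p = 3.66e-05). In TGFBRII KO it was at 62.8 ± 3.05 and 41.1 ± 3.74 CPM (log2 -0.60 ± 0.20, adjusted p = 0.0508), and the interaction was 2.75 ± 0.39 (adjusted p = 8.25e-06). Dusp7 (chromosome 9, 106368560 to 106375724), a phosphatase that shuts off ERK, was at 52 to 68.6 CPM, then 11.3 and 22.5 CPM, then 43, 58.3, 61.1 and 56.4 CPM (log2 1.48 ± 0.29, adjusted p = 0.00111). Dusp7 rose in CIS KO too, from 9.26 ± 5.89 to 33.1 ± 7.59 CPM (log2 1.90 ± 0.29, adjusted p = 3.46e-05). Pprc1 and Dusp7 were called in every alternative. In the list of 11 MAP kinase phosphatases and Sprouty genes, Dusp7 rose and Dusp14 fell (log2 -1.01 ± 0.21, adjusted p = 0.00173), and the median was 0.28 (range 0.17 to 0.59).

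Bcl11b, a transcription factor of T and innate lymphoid cells, was at 111 to 128 CPM in unstimulated cells, 33.8 and 23.8 CPM at 4 h and 69.8, 68, 85 and 75.7 CPM at 24 h (log2 1.48 ± 0.34, adjusted p = 0.00558, and 0.239 without 4 h replicate 4). Tox, which NK cells need for their development, was at 92.2 to 109 CPM, 26.3 and 45.1 CPM and 87.3, 71.2, 107 and 83.1 CPM (log2 1.11 ± 0.32, adjusted p = 0.0254). Its call was lost on leaving out single libraries (adjusted p = 0.152 and 0.0873 without 4 h replicate 1 or 4 and 0.058 without 24 h replicate 3). Both genes rose part or all of the way back. Hbegf, a ligand of the EGF receptor, and Grasp, a scaffold protein, rose by 1.86 ± 0.47 (adjusted p = 0.0108) and 1.76 ± 0.44 (adjusted p = 0.011). Hbegf was at 3.76 and 8.77 CPM at 4 h and 22.7 to 34.3 CPM at 24 h. Grasp was at 3.76 and 7.52 CPM at 4 h and 14 to 29.8 CPM at 24 h. Neither call held without 4 h replicate 1 (adjusted p = 0.0727 and 0.074) or replicate 4 (adjusted p = 0.0885 and 0.125). Acsl1, which activates long-chain fatty acids, had 2 counts at 4 h, a ratio of 24 h over 4 h of 10.8 (95% interval 2.85 to 90.9), and its call was also lost without either (adjusted p = 0.0623 and 0.0986). Tspan32, a tetraspanin, had 2 counts at 4 h and a ratio of 7.06 (95% interval 1.83 to 60.3), with an adjusted p = 0.382 without replicate 4. Of the 112 transient falls, 65 rose in CIS KO between the times and 0 fell, and in TGFBRII KO 25 rose and 11 fell. Over all genes 7.82% rose and 7.69% fell in CIS KO, and 4.42% rose and 4.0% fell in TGFBRII KO.

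**Figure D3:**
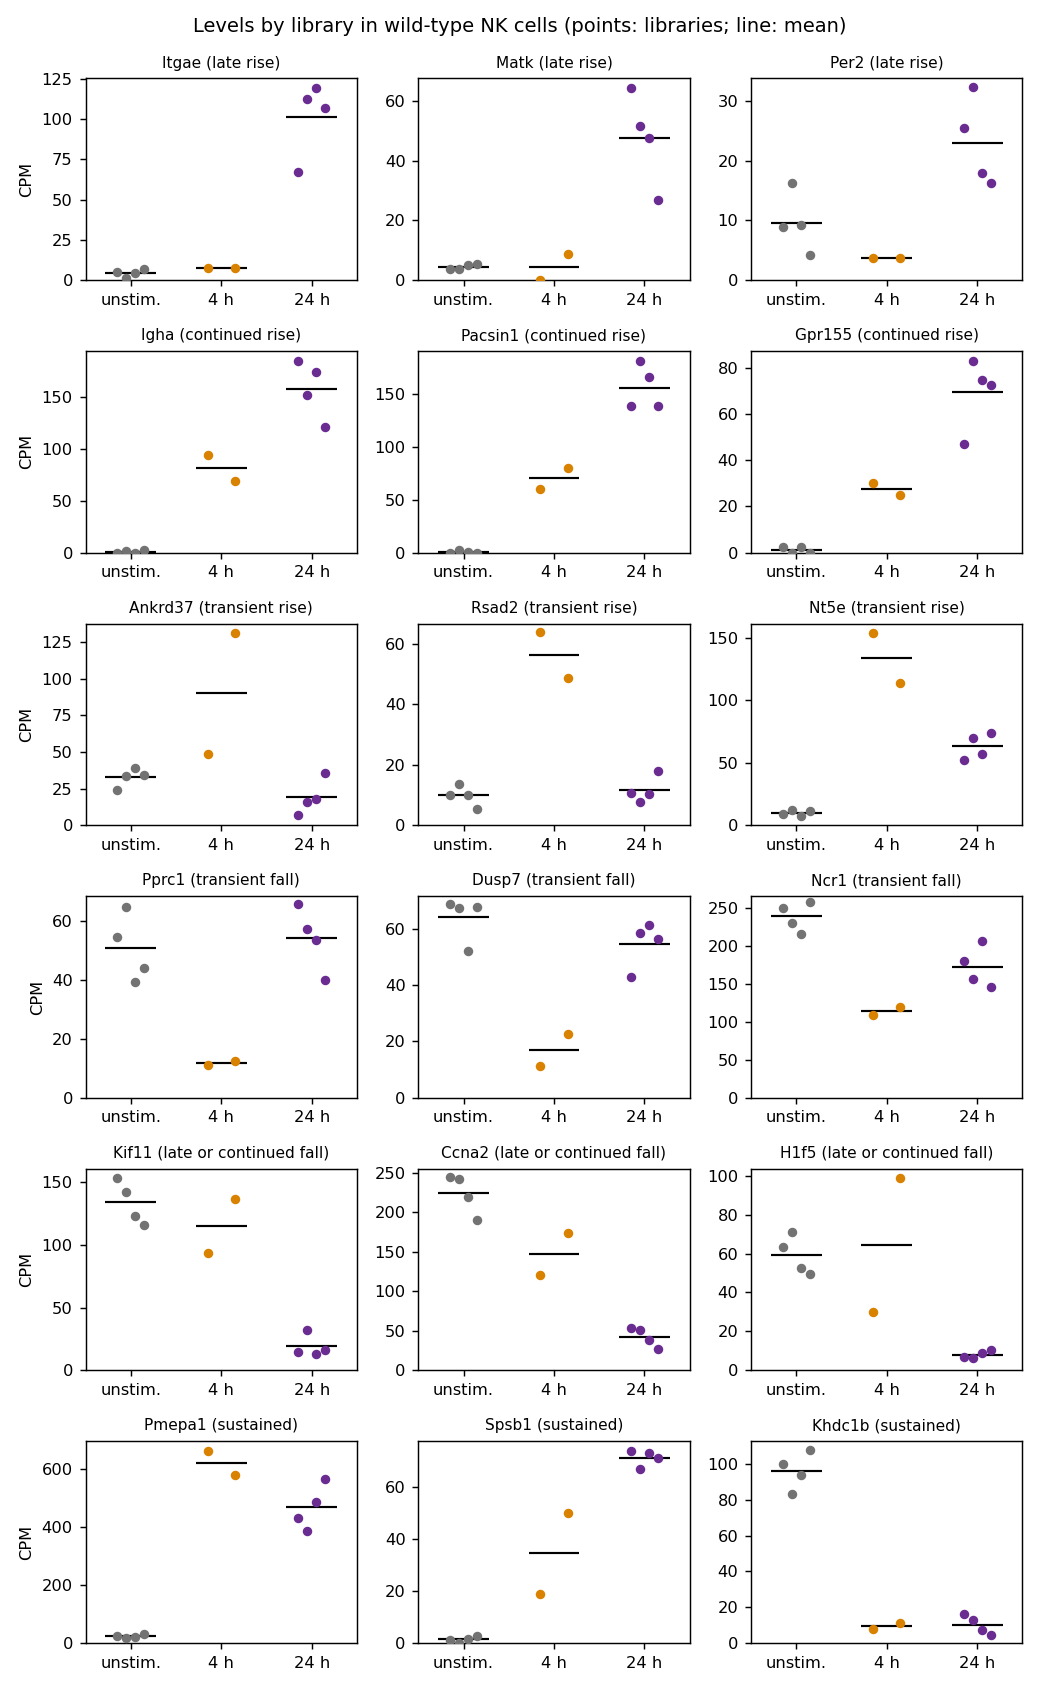
Levels in CPM (vertical axes, each from 0) of 18 genes in every WT library, unstimulated, at 4 h and at 24 h of TGFB1, with a line at the mean of each group. Rows follow the time classes; the 24 h points of Itgae lie between 67.1 and 119 CPM with all other points of that gene under 10 CPM, and the 4 h points of Ankrd37 and H1f5 lie far apart.

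Sustained genes were called by 4 h, and no further difference was called after it. Between 4 h and 24 h the 329 sustained rises had a median difference of -0.11, with 113 above 0 and 216 below, and the 237 sustained falls one of 0.14. For 275 and 157 of them the 95% interval of that difference lay within 2-fold in both directions; for the others a change of that size is not excluded by the data. Pmepa1 and Ski, a SMAD co-repressor, both picked after their values were seen, show the pattern. Pmepa1 (chromosome 2, 173224458 to 173276731) was at 22.9, 16.2, 21.8 and 30.4 CPM in unstimulated cells, 665 and 581 CPM at 4 h and 434, 386, 489 and 568 CPM at 24 h (log2 between the times -0.40 ± 0.19, adjusted p = 0.206). Ski was at 131 to 163 CPM, then 586 and 569 CPM, then 513, 438, 529 and 545 CPM (log2 -0.19 ± 0.12, adjusted p = 0.343). In both genes the 24 h libraries stayed far above the unstimulated ones.

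The rule for naming genes gave Spsb1, Tbc1d16, Sec14l2, Scn3b and Ccdc74a among the sustained rises, all close to 0 in unstimulated cells. Spsb1 (chromosome 4, 149896283 to 149955006), an adaptor of a ubiquitin ligase that is known to target the type II TGF-β receptor, was at 1.27, 0, 1.68 and 2.76 CPM, 18.8 and 50.1 CPM and 73.9, 66.9, 73 and 71.2 CPM (log2 between the times 0.82 ± 0.30, adjusted p = 0.0894). The 24 h libraries were close together and above both 4 h libraries, which differed more than 2-fold from each other. Tbc1d16, a Rab GTPase-activating protein, was at 30.1 and 45.1 CPM and 48.3, 28.1, 26.8 and 32.6 CPM, 39.5-fold (95% interval 13.1 to 195) above unstimulated cells at 24 h. Sec14l2, Scn3b and Ccdc74a were 50-fold (95% interval 13.4 to 419), 106-fold (95% interval 18.5 to 4222) and 58.7-fold (95% interval 15.8 to 491) above unstimulated cells, from 1 or 2 counts there. Among the sustained falls, Khdc1b (chromosome 1, 21383556 to 21386384) was at 100.4, 83.6, 93.9 and 108 CPM, then 7.52 and 11.3 CPM, then 16.1, 12.9, 7.45 and 4.45 CPM (log2 between the times 0.04 ± 0.57). Ccl9, a chemokine, was at 66.1 to 109 CPM, then 15 and 11.3 CPM, then 5.37, 6.47, 7.45 and 10.4 CPM (log2 between the times -0.73 ± 0.62, adjusted p = 0.505). For both the treated libraries of the 2 times overlapped or lay close, far below the unstimulated ones. Of the 329 sustained rises, 16 rose and 42 fell in CIS KO between the times, and 20 rose and 12 fell in TGFBRII KO. Over all genes 7.82% rose and 7.69% fell in CIS KO, and 4.42% rose and 4.0% fell in TGFBRII KO.

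In the TGF-β feedback and SMAD list of 19 genes, 11 were called higher and 2 lower at 4 h against unstimulated cells, 11 and 1 at 24 h, and 2 and 2 between the times (median 0.00, range -0.17 to 0.21). Tgfbr1, the type I receptor, rose from 75.2 and 90.2 CPM at 4 h to 119.5 to 178 CPM at 24 h (log2 0.69 ± 0.21, adjusted p = 0.0315). Smurf1, a ubiquitin ligase of receptors and SMADs, was at 22.5 and 51.4 CPM and 79.2, 73.4, 77.5 and 81.6 CPM (log2 0.85 ± 0.27, adjusted p = 0.047). Both genes had 24 h libraries above both 4 h libraries. DESeq2 called neither rise, and both calls rested on single libraries, with an adjusted p for Tgfbr1 of 0.163 and 0.136 without 4 h replicate 1 or 4 and 0.0762 without 24 h replicate 4. For Smurf1 it was 0.316 without 4 h replicate 1 and 0.0574 to 0.0704 without 24 h replicate 1, 2, 3 or 4. The falls were Tgif1 and Klf10, an early TGF-β-inducible repressor, which was at 78.9 and 122 CPM and 56.4 to 77.2 CPM (log2 -0.63 ± 0.20, adjusted p = 0.0409, and 0.819 without 4 h replicate 4 and 0.0895 and 0.0646 without 24 h replicate 1 or 3).

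In the tissue residency and ILC1 list of 18 genes, 3 rose (Itgae, Tnfsf10 and Ahr) and 4 fell (Nt5e, Rgs1, Rgs2 and Gpr183) between 4 h and 24 h. Tnfsf10, the death ligand TRAIL, was at 139 and 138 CPM at 4 h and 183, 224, 219 and 208 CPM at 24 h (log2 0.59 ± 0.15, adjusted p = 0.0126). Ahr, a receptor for aromatic ligands, was at 37.6 and 76.4 CPM and 85.9, 119.8, 127 and 165 CPM (log2 0.93 ± 0.27, adjusted p = 0.0257). Both had every 24 h library above both 4 h libraries, and the adjusted p was 0.0678 and 0.151 without 4 h replicate 1 or 4 for Tnfsf10 and 0.223 without 4 h replicate 1 and 0.0638 without 24 h replicate 4 for Ahr. Without 4 h replicate 1 the list counted 1 rise and 3 falls, and without replicate 4 it counted 2 and 4.

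Among 23 NK receptors and adaptors, Ncr1 and Cd96 rose and Havcr2 fell (median -0.24, range -0.32 to -0.075). Ncr1 (chromosome 7, 4337715 to 4345184), the activating receptor NKp46, was at 250.4, 231, 216 and 258 CPM in unstimulated cells, 109 and 119 CPM at 4 h and 179.9, 156, 207 and 145 CPM at 24 h. It had fallen by 4 h and came part of the way back (log2 0.57 ± 0.15, adjusted p = 0.0138), with all 24 h libraries between the other groups. Havcr2 (chromosome 11, 46454931 to 46481255), the checkpoint receptor TIM-3, was at 148 to 175 CPM, then 143 and 138 CPM, then 60.4, 61.5, 44.7 and 46 CPM (log2 -1.37 ± 0.20, adjusted p = 2.13e-05), and was called in every alternative. It fell in CIS KO (log2 -0.98 ± 0.14, adjusted p = 8.49e-06) and in TGFBRII KO had a log2 difference of -0.19 ± 0.14 (adjusted p = 0.451). Cd96, a receptor for nectin-like ligands, was at 293 and 274 CPM and 383, 332, 407 and 387 CPM (log2 0.42 ± 0.12, adjusted p = 0.0323). DESeq2 called Havcr2 and neither rise. The list counted 0 rises and 5 falls without 4 h replicate 4. The adjusted p of Ncr1 was 0.0955 and 0.108 without 4 h replicate 1 or 4, and that of Cd96 was 0.0985 and 0.239 without 4 h replicate 1 or 4 and 0.0502 to 0.0692 without 24 h replicate 1, 3 or 4.

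Of 14 transcription factors of NK and ILC identity, Tox rose and Nfil3, Ets1 and Irf8 fell (median -0.23, range -0.205 to -0.14). Nfil3, needed for NK lineage entry, was at 120.3 and 167 CPM at 4 h and 105, 73.4, 87.9 and 104 CPM at 24 h (log2 -0.73 ± 0.15, adjusted p = 0.00131, and 0.43 without replicate 4). Ets1 was at 567 and 529.9 CPM and 307, 306, 364 and 396 CPM (log2 -0.67 ± 0.12, adjusted p = 0.000488). Irf8 was at 327 and 306 CPM and 191, 142, 191 and 266 CPM (log2 -0.68 ± 0.19, adjusted p = 0.0189, and 0.0946 and 0.0955 without 4 h replicate 1 or 4 and 0.068 without 24 h replicate 2). In all 3 the 24 h libraries lay below both 4 h libraries.

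Some cytotoxic genes were lower at 24 h than at 4 h, and this rested largely on the 4 h replicate 1. Of 21 genes, 8 fell and 0 rose (median -0.62, range -0.999 to -0.155, DESeq2 8 and 0, unadjusted p under 0.05 in 12 lower and 1 higher). With sequencing depth as a covariate 7 fell and 2 rose. The summed level without TMM, which also held the untested Gzmk, was 11010 CPM in 4 h replicate 1 and 6264 CPM in replicate 4. It was 5039 to 5998 CPM at 24 h, against 5575 to 7154 CPM in unstimulated cells. Replicate 4 lay inside the unstimulated range and replicate 1 above it. Without replicate 1 the count was 1 (median -0.16), and without replicate 4 it was 11 (median -0.999). Gzmd, Gzme and Gzmg are granzymes of 1 cluster on chromosome 14, whose near-identical copies may share reads. Gzmd was at 1210.0 and 467 CPM at 4 h and 317 to 409.5 CPM at 24 h (log2 -1.14 ± 0.27, adjusted p = 0.00643). Without replicate 1 its difference was -0.37 (adjusted p = 0.591). Gzma was at 1649.7 and 688 CPM and 507 to 718 CPM, with an adjusted p = 0.0461, and 0.894 without 4 h replicate 1 and 0.076 and 0.115 without 24 h replicate 1 or 2. Gzmb was at 1187 and 598 CPM and 429.7 to 595 CPM, with an adjusted p = 0.0362, and 0.757 without 4 h replicate 1 and 0.0843 and 0.0813 without 24 h replicate 1 or 2. Prf1, the pore protein perforin, was at 161 to 178 CPM in unstimulated cells, 177 and 124 CPM at 4 h and 79.2, 59.4, 87.9 and 108 CPM at 24 h (log2 -0.78 ± 0.23, adjusted p = 0.0315, and 0.234 without 4 h replicate 1 and 0.057 and 0.102 without 24 h replicate 1 or 2). All 24 h libraries of Prf1 lay below all others. Serpinb6b (chromosome 13, 32956811 to 32979067), an inhibitor of serine proteases, was the gene of this list that was called in every alternative, with 361 to 456 CPM, then 338 and 333 CPM, then 141, 152, 176 and 177 CPM (log2 -1.06 ± 0.13, adjusted p = 9e-07). It fell in CIS KO too (log2 -1.14 ± 0.10, adjusted p = 9.02e-09) and differed from TGFBRII KO by -1.14 ± 0.17 (adjusted p = 1.88e-05). In CIS KO 11 of the 21 genes fell and in TGFBRII KO 1 did, with 0 rises in either.

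Of 11 genes of circulating mature NK cells, Ly6c2 and Cma1 fell and 0 rose (median -0.27, range -0.285 to -0.19). Ly6c2, a surface glycoprotein, was at 252 and 205 CPM at 4 h and 108 to 146 CPM at 24 h (log2 -0.78 ± 0.20, adjusted p = 0.0109, and 0.0983 without replicate 1). Cma1, a chymase, was at 18.8 and 32.6 CPM and 9.4 to 11.9 CPM (log2 -1.41 ± 0.39, adjusted p = 0.0221, and 0.571 without replicate 4). Of 12 cytokines and chemokines, 0 were called in either direction by edgeR or DESeq2, with 3 lower and 0 higher at an unadjusted p under 0.05 (median -0.39, range -0.56 to -0.088). Leaving out 4 h replicate 4, 3 were called lower, and in CIS KO 6 of the 12 fell and 0 rose. Ifng was at 120.3 and 85.2 CPM and 59.4 to 83.1 CPM (log2 -0.43 ± 0.19, adjusted p = 0.151), and in CIS KO it fell (log2 -0.98 ± 0.13, adjusted p = 4.51e-06).

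Amino acid supply genes of the ATF4 programme fell in part. Of 19 genes, 6 fell (Asns, Phgdh, Psat1, Psph, Shmt2 and Mthfd2) and 0 rose (median -0.37, range -0.59 to -0.30). These 6 make serine, asparagine and folate-borne carbon units. Psat1 (chromosome 19, 15905123 to 15925059), an aminotransferase of serine synthesis, was at 237 and 241 CPM at 4 h and 161, 144, 145 and 119 CPM at 24 h (log2 -0.75 ± 0.14, adjusted p = 0.000449). Mthfd2, of mitochondrial folate metabolism, was at 210.4 and 185 CPM and 109, 119.8, 83.5 and 107 CPM (log2 -0.88 ± 0.14, adjusted p = 6.32e-05), below an unstimulated range of 254 to 297 CPM. Both genes were called in every alternative, with 24 h libraries below all 4 h and unstimulated ones. Phgdh and Shmt2 had log2 differences of -1.21 ± 0.23 and -0.83 ± 0.14, with the calls lost without 4 h replicate 4 (adjusted p = 0.147 and 0.0506), and the list then counted 2. The adjusted p of Asns was 0.0721 without 4 h replicate 4, and that of Psph 0.168 and 0.0955 without 4 h replicate 1 or 4 and 0.0598 without 24 h replicate 4. In CIS KO 10 of the 19 fell and 0 rose, and in TGFBRII KO 1 rose and 0 fell. The WT change lay below that of TGFBRII KO for 7 of the 19 (1 without 4 h replicate 4).

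Cholesterol synthesis genes split between the times. Of 25 genes, 4 rose, among them Sqle and Cyp51, and 4 fell, Pmvk, Tm7sf2, Stard4 and Scd2 (median -0.05, range -0.13 to 0.15). At 4 h against unstimulated cells 2 had been higher and 13 lower, and at 24 h 0 were higher and 20 lower. Sqle, squalene epoxidase, was at 128 to 161 CPM, then 48.9 and 57.6 CPM, then 91.3, 86.3, 95.4 and 95 CPM (log2 0.73 ± 0.16, adjusted p = 0.00827, and 0.0618 and 0.123 without 4 h replicate 1 or 4). Pmvk, phosphomevalonate kinase, went the other way, from 137 to 163 CPM to 169 and 105 CPM and 79.2, 75.5, 68.6 and 71.2 CPM (log2 -0.76 ± 0.17, adjusted p = 0.00503, and 0.133 without replicate 1). Scd2, a fatty acid desaturase, was at 71.4 and 159 CPM and 35.6 to 64.1 CPM (log2 -1.47 ± 0.30, adjusted p = 0.00172, and 0.593 without replicate 4). The counts were 1 rise and 2 falls without replicate 1, and 2 and 2 without replicate 4. The adjusted p of Cyp51 was 0.212 and 0.178 without 4 h replicate 1 or 4 and 0.0964 and 0.0968 without 24 h replicate 3 or 4. For Tm7sf2 it was 0.0956 and 0.425 without 4 h replicate 1 or 4 and 0.068 to 0.0973 without 24 h replicate 2, 3 or 4, and for Stard4 0.525 without 4 h replicate 4 and 0.0595 without 24 h replicate 2. In TGFBRII KO 18 of the 25 rose between the times and 0 fell (median 0.80, DESeq2 17 and 0), and the WT change lay below that of TGFBRII KO for 10 (4 without 4 h replicate 4). Pmvk rose there (log2 0.99 ± 0.14, adjusted p = 8.6e-06), with an interaction of -1.75 ± 0.22 (adjusted p = 2.11e-06). Fads2, a desaturase outside this list, was among the largest falls in WT, from 11.3 and 15 CPM to 2.69, 2.16, 0 and 0 CPM (log2 -3.24 ± 0.69, adjusted p = 0.00212, and 0.134 without replicate 4). It rose in TGFBRII KO from 14.3 ± 2.67 to 30.4 ± 8.89 CPM (log2 1.08 ± 0.34, adjusted p = 0.0421).

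A few ribosome biogenesis genes rose in WT, and most of the list fell in TGFBRII KO. Of 21 genes, Nop58, Rrp9, Wdr43 and Nop2 rose and Npm1 fell (median 0.16, range 0.13 to 0.24, DESeq2 1 and 2). Wdr43 (chromosome 17, 71616178 to 71659031), of the small-subunit processome, was at 376, 409, 408 and 367 CPM in unstimulated cells, 177 and 224 CPM at 4 h and 357, 309.7, 328 and 325 CPM at 24 h (log2 0.68 ± 0.14, adjusted p = 0.00172, and 0.0535 without 4 h replicate 1). Nop58, a core protein of box C/D ribonucleoproteins, was at 283 to 336 CPM, then 162 and 157 CPM, then 216, 221, 198 and 211 CPM (log2 0.42 ± 0.13, adjusted p = 0.0371, and 0.125 and 0.279 without 4 h replicate 1 or 4 and 0.0679 and 0.071 without 24 h replicate 1 or 2). In both genes all 24 h libraries lay above both 4 h libraries. In TGFBRII KO 15 of the 21 fell and 0 rose (median -0.82, DESeq2 16 and 0). Wdr43 went from 502 ± 35.7 to 296 ± 10.2 CPM (log2 -0.76 ± 0.11, adjusted p = 3.11e-05), and Nop58 from 403 ± 32.1 to 229 ± 27.4 CPM (log2 -0.82 ± 0.10, adjusted p = 1.56e-06). The WT change lay above that of TGFBRII KO for 12 of the 21 and below it for 0. Without 4 h replicate 1 the WT list counted 2 rises, and without replicate 4 it counted 1. The adjusted p was 0.0645 and 0.166 without 4 h replicate 1 or 4 for Rrp9, and 0.589 without 4 h replicate 4 for Nop2. For Npm1 it was 0.488 without 4 h replicate 1 and 0.0713 and 0.0643 without 24 h replicate 1 or 2.

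**Figure D4:**
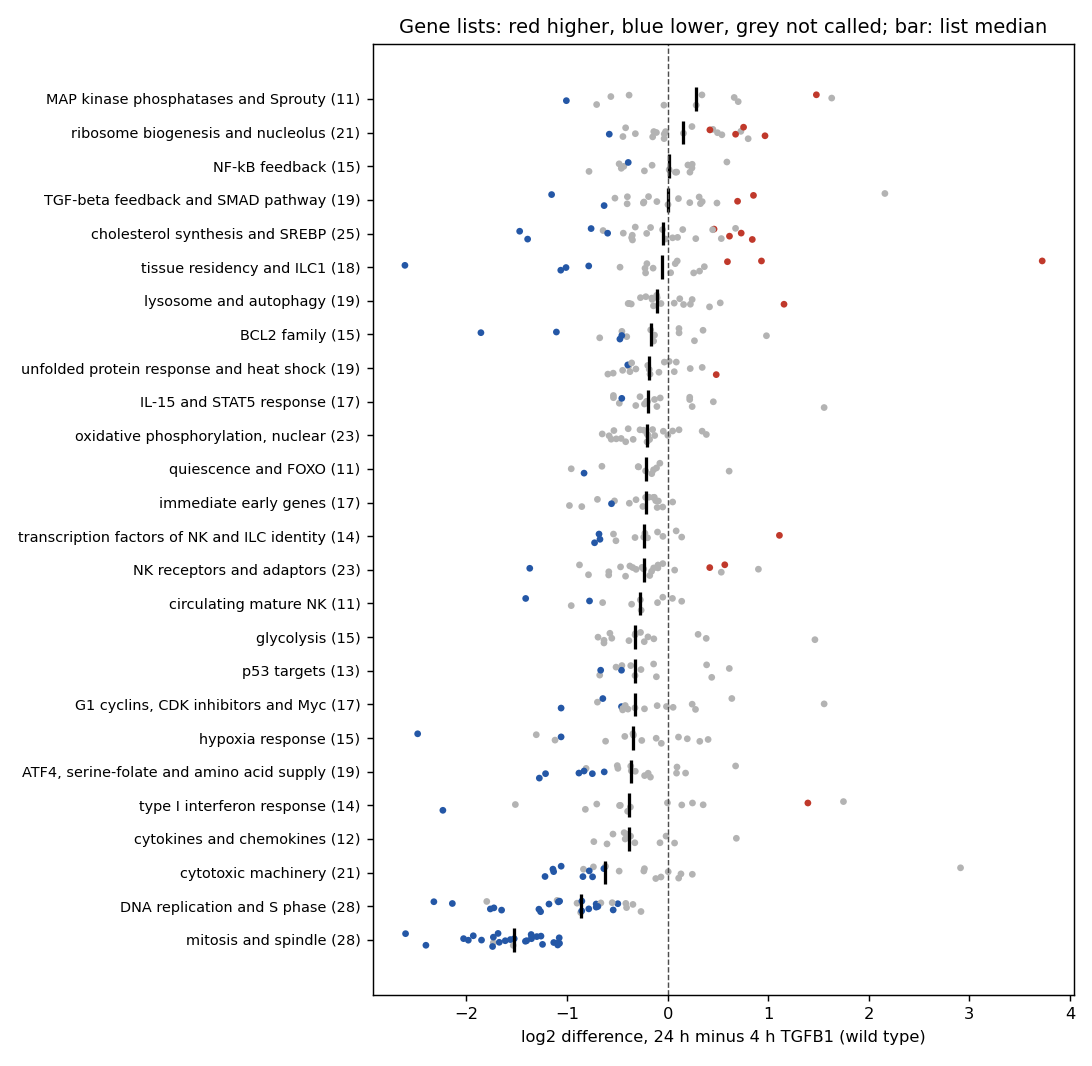
Log2 difference between 24 h and 4 h of TGFB1 in WT NK cells (horizontal axis) for the genes of each list (number tested in parentheses), with red points for genes called higher, blue for lower and grey for not called. Bars mark list medians and the dashed line the median of all genes, 0.01; the mitosis and S phase lists lie farthest to the left with all of their genes below 0.

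The calls of the other lists stand beside 2.98% higher and 4.53% lower over all genes tested. Of 17 G1 cyclin, CDK inhibitor and Myc genes, Cdkn1a, Cdkn2c and Mxi1 fell and 0 rose (median -0.325, range -0.25 to -0.14). Cdkn1a, the inhibitor p21, was at 252 and 264 CPM at 4 h and 179, 170.5, 169.9 and 239 CPM at 24 h (log2 -0.46 ± 0.15, adjusted p = 0.0465). Cdkn2c, the inhibitor p18, was at 67.6 and 97.7 CPM and 47.7 to 63.8 CPM (log2 -0.64 ± 0.20, adjusted p = 0.0427). The adjusted p of Cdkn1a was 0.11 and 0.277 without 4 h replicate 1 or 4 and 0.0843 to 0.111 without 24 h replicate 1, 2 or 3. That of Cdkn2c was 0.743 without 4 h replicate 4 and 0.0561 to 0.0881 without 24 h replicate 1, 2 or 3. Of 15 BCL2 family genes, Bcl2a1b, Bcl2a1d, Mcl1 and Bcl2l11 fell and 0 rose (median -0.17, range -0.30 to -0.091). Bcl2a1b, an inhibitor of cell death with near-identical copies, was at 124 and 72.7 CPM and 29.1 to 53.4 CPM (log2 -1.11 ± 0.28, adjusted p = 0.0129, and 0.158 without replicate 1). Mcl1 was the gene called in the list of 17 interleukin 15 and STAT5 response genes (log2 -0.46 ± 0.15, adjusted p = 0.0478, and 0.448 without 4 h replicate 1 and 0.0654 to 0.092 without 24 h replicate 1, 2 or 4). The calls of Bcl2a1d (adjusted p = 0.108 and 0.293 without 4 h replicate 1 or 4 and 0.0685 to 0.0876 without 24 h replicate 1, 2 or 3) and Bcl2l11 (adjusted p = 0.138 without 4 h replicate 1) were lost in the same way. Of 17 immediate early genes, Klf6 fell (log2 -0.56 ± 0.13, adjusted p = 0.00407, and 0.11 without replicate 1). Cdkn1a and Trp53inp1 were lower in the p53 list of 13, and Tnip1 was lower in the NF-κB feedback list of 15. Herpud1 was higher and Canx lower in the unfolded protein list of 19. Mcoln1 was higher in the lysosome list of 19, and Txnip was lower in the quiescence list of 11. Each of these calls ended on leaving out single libraries, with an adjusted p of 0.212 without 4 h replicate 4 for Trp53inp1. It was 0.29 and 0.0688 without 4 h replicate 1 or 4 and 0.0669 to 0.118 without 24 h replicate 2, 3 or 4 for Tnip1, and 0.387 without 4 h replicate 1 and 0.0629 and 0.0556 without 24 h replicate 1 or 2 for Txnip. Herpud1 had 0.209 and 0.142 without 4 h replicate 1 or 4 and 0.051 to 0.0661 without 24 h replicate 1, 3 or 4, and Canx 0.144 and 0.187 without 4 h replicate 1 or 4 and 0.112 and 0.138 without 24 h replicate 1 or 2. Mcoln1 had 0.0591 and 0.444 without 4 h replicate 1 or 4 and 0.0895 without 24 h replicate 1. In the lists of 15 glycolysis and 23 nuclear oxidative phosphorylation genes 0 were called by edgeR or DESeq2, with 1 higher and 6 lower at an unadjusted p under 0.05 in each.

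Over all genes tested, few were called as different between WT and CIS KO in how they changed, 5 above and 97 below. With 2 WT libraries at 4 h, genes that were not called need not have changed alike. Of the 5 genes whose WT change was above that of CIS KO, Pprc1, Nop58 and Wdr43 are described above, and the others were Ccl3 and Xpa. Pprc1 differed by 1.85 ± 0.41 (adjusted p = 0.00985, and 0.501 without 4 h replicate 4). Nop58 differed by 0.61 ± 0.16 (adjusted p = 0.0435, and 0.0531 to 0.538 without single libraries of WT 4 h, WT 24 h, CIS KO 4 h or CIS KO 24 h). Wdr43 differed by 0.71 ± 0.17 (adjusted p = 0.0288, and 0.0511 to 0.244 without single libraries of WT 4 h, WT 24 h, CIS KO 4 h or CIS KO 24 h). Ccl3, a chemokine that NK cells release, was at 116 and 111 CPM and 68.5, 64.7, 93.9 and 141 CPM in WT (log2 -0.33 ± 0.21, adjusted p = 0.358). It fell from 166 ± 10.7 to 60.7 ± 4.12 CPM in CIS KO (log2 -1.46 ± 0.16, adjusted p = 3.22e-07), and the interaction was 1.13 ± 0.26 (adjusted p = 0.0181, and 0.468 without 4 h replicate 4 and 0.0504 without 24 h replicate 4). Xpa, of nucleotide excision repair, fell in CIS KO (log2 -0.49 ± 0.11, adjusted p = 0.00319) and was not called in WT (log2 0.29 ± 0.15). The interaction was 0.78 ± 0.19 (adjusted p = 0.0257, and 0.0509 to 0.62 without single libraries of WT 4 h, WT 24 h, CIS KO 4 h or CIS KO 24 h). Of the 97 genes whose WT change lay below that of CIS KO, the largest differences at a level of at least 5 CPM were those of Ticrr, Nuf2, Ska3, Esco2 and Chek1, all of replication or mitosis. Ska3 differed by -2.84 ± 0.58 (adjusted p = 0.00469, and 0.235 without 4 h replicate 4) and Esco2 by -2.83 ± 0.61 (adjusted p = 0.00814, and 0.528 without 4 h replicate 4 and 0.0626 without CIS KO 24 h replicate 2). Ticrr, which helps fire replication origins, was at 3.76 and 22.5 CPM and 2.69 to 6.47 CPM in WT, an interaction of -3.40 ± 0.79 (adjusted p = 0.0181, and 0.913 without 4 h replicate 4 and 0.0797 without CIS KO 24 h replicate 2). Its 4 h libraries lay far apart and its WT change turned to 0.29 without replicate 4.

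Against TGFBRII KO, the WT change was above for 245 genes and below for 380. The largest differences above 0 at a level of at least 5 CPM were those of Hsf2bp, Itgae, Acsl1, Per2 and Ankrd23, and below 0 those of Fancd2os, Rnf183, Fads2, H2ac23 and Fancd2. Hsf2bp, a partner of BRCA2, was at 7.52 and 5.01 CPM and 20.1, 20.5, 14.9 and 11.9 CPM in WT and at 2.43 ± 0.995 and 0 ± 0 CPM (SD, n = 3) in TGFBRII KO, where it had 0 counts at 24 h. Its interaction, 5.51 ± 1.64 (adjusted p = 0.0375, and 0.0516 to 0.115 without single libraries of WT 4 h, WT 24 h, TGFBRII KO 4 h or TGFBRII KO 24 h), therefore depends on how a count of 0 is fitted. Acsl1 differed by 3.60 ± 0.96 (adjusted p = 0.0166, and 0.0612 and 0.105 without 4 h replicate 1 or 4 and 0.0636 without TGFBRII KO 4 h replicate 3), with 2 counts in WT at 4 h. Ankrd23 was at 7.52 and 7.52 CPM and 25.5, 41, 13.4 and 13.4 CPM in WT (log2 1.67 ± 0.60, adjusted p = 0.0796). In TGFBRII KO it was at 13.5 ± 4.29 and 5.2 ± 2.92 CPM, an interaction of 3.02 ± 0.81 (adjusted p = 0.0182, and 0.0549 to 0.123 without single libraries of WT 4 h, TGFBRII KO 4 h or TGFBRII KO 24 h). Fancd2, of the repair of DNA crosslinks, and Fancd2os, which overlaps it on the other strand, differed by -3.66 ± 0.98 (adjusted p = 0.0169, and 0.294 without 4 h replicate 4) and -4.94 ± 0.83 (adjusted p = 0.000118, and 0.0907 without 4 h replicate 4). Reads of the 2 genes cannot be told apart where the strand setting of the counting is not known. Fancd2os was at 7.52 and 12.5 CPM at 4 h and 0 to 2.69 CPM at 24 h in WT and rose from 3.69 ± 0.849 to 19.4 ± 1.37 CPM in TGFBRII KO (log2 2.32 ± 0.47, adjusted p = 0.00126). Fads2, described above, differed by -4.32 ± 0.77 (adjusted p = 0.000224, and 0.0689 without 4 h replicate 4). Rnf183 and H2ac23 had 1 and 2 counts in WT at 24 h, and differed by -4.36 ± 1.29 (adjusted p = 0.035) and -4.18 ± 1.29 (adjusted p = 0.0448). Rnf183 then had an adjusted p of 0.0521 to 0.126 without single libraries of WT 4 h, WT 24 h, TGFBRII KO 4 h or TGFBRII KO 24 h. For H2ac23 it was 0.0608 to 0.386 without single libraries of WT 4 h, WT 24 h, TGFBRII KO 4 h or TGFBRII KO 24 h.

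Some of the calls between the times given above also ended under other settings. Of 113 such calls, fitting the 6 compared libraries alone ended 48. Among those 48 were Ets1, Dusp14, Ahr, Tnfsf10, Nfil3, Cdc20, Kif23, Phgdh, Sqle, Wdr43 and Prf1. Summing WT 24 h replicates 3 and 4 ended 13. Of the 113, DESeq2 ended 28, those of Atp6v0a4, Brca1, Cd14, Cd96, Cdkn1a, Cdkn2c, Clic5, Cyp51, Grasp, Gzma, H4f16, Herpud1, Klf10, Mcl1, Mcoln1, Ncr1, Nop2, Nop58, Psph, Rnase6, Rrp9, Smurf1, Tbc1d32, Tgfbr1, Ticrr, Tm7sf2, Tnip1 and Tspan32. Scaling by library size alone ended 14, those of Atp6v0a4, Bcl2a1d, Brca1, Canx, Cd14, Cdkn1a, Cdkn2c, Gzma, Klf10, Mcl1, Psph, Ticrr, Tm7sf2 and Tnip1. Omitting the low-count filter ended 11, those of Atp6v0a4, Canx, Cd14, Cd96, Cdkn1a, Cyp51, Herpud1, Nop58, Psph, Tm7sf2 and Tnip1, and sequencing depth as a covariate those of Bcl2a1d, Gzmb, Mcl1 and Tnip1. Of the differences from TGFBRII KO, DESeq2 ended those of Acsl1 and Hsf2bp, and the depth covariate those of H2ac23 and Itgae. Of those from CIS KO, DESeq2 ended those of Nop58 and Xpa, and scaling by library size that of Wdr43.

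Markers of other cell types were also looked at between the times, where 7.52% of all genes tested were called. Of 9 T cell markers Bcl11b was called (higher), of 2 B cell markers Igha (higher) and of 4 myeloid markers Cd14 (lower). Of 3 ILC2 and ILC3 and 4 stromal markers 0 were called, while no erythroid or platelet marker passed the filter. Bcl11b and Igha are described above. Cd14 was at 30.1 and 26.3 CPM at 4 h and 6.71, 14, 10.4 and 14.8 CPM at 24 h (log2 -1.23 ± 0.38). The adjusted p of Cd14 was 0.0388, and 0.135 and 0.178 without 4 h replicate 1 or 4 and 0.0932 and 0.0654 without 24 h replicate 1 or 3. The summed level without TMM of the T cell markers was 846 to 951 CPM at 4 h and 872 to 924 CPM at 24 h. That of the myeloid markers was 629 to 985 CPM at 4 h and 563 to 721 CPM at 24 h, with C1qa, C1qb, S100a8, S100a9, Siglech and Flt3 at 0 in all WT libraries. ILC2 and ILC3 markers summed to 440 to 516 CPM and 261 to 495 CPM, with Il22, Il17a and Il5 at 0. Stromal and epithelial markers summed to 862 to 1045 CPM and 743 to 856 CPM, with Col1a2, Dcn, Cdh5 and Krt8 at 0. Over the WT libraries Fcer1g (2902 counts) and Itgax (1625) made up most of the myeloid sum, with 1 count of Lyz2 and 4 of Csf1r. Gata3 (1339 counts) and Kit (1332) made up most of the ILC2 and ILC3 sum. Vim (3331 counts) and Pecam1 (1786) made up most of the stromal and epithelial sum. The part of other cells in the changes above was not tested.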

How the data were processed

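RNA-seq was run on sorted mouse NK cells in 31 libraries of 9 genotype and time groups. The authors deposited raw read counts per gene, whole numbers that were not normalized. The submitters' processing notes name FastQC, Trimmomatic, Subread, featureCounts, SAMtools, Picard and mm10, with no version, and nothing used here gives the counting options or the strand setting. The table held 27179 gene identifiers, of which 25275 matched RefSeq by identifier, and identifiers without a symbol took 0.96% of counts.

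Counts were fitted in R 4.3.3 with edgeR 4.0.16 (limma 3.58.1): filterByExpr on the 9 groups, TMM scaling and the quasi-likelihood F-test with 1 mean per group. All 31 libraries shared the estimate of spread (common biological coefficient of variation 0.103). Between pairs of replicates, the chi-square per degree of freedom was 1.744 in WT at 4 h and 0.99 to 2.688 in WT at 24 h. It was 0.806 to 3.164 in the other groups. Benjamini-Hochberg adjustment covered all 10275 tested genes, with calls made below an adjusted p of 0.05. The value after ± is the SE of a log2 difference, or the SD of CPM. DESeq2 1.42.0 served as an alternative, and the fit was tested on simulated data. Totals ran from 297561 to 1403005 counts per library, and intervals of count ratios are exact at 95% and cover counting error only. Replicates 3 and 4 of WT at 24 h differed by about the sampling noise (chi-square p = 0.717) and were kept apart, with their sum as an alternative added after seeing the data, which gave 683 calls in place of 733. Other pairs were closer, such as unstimulated WT replicates 2 and 4 (chi-square per degree of freedom 0.898, against 0.99). The value therefore does not single out this pair.

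The members and gene lists were chosen with earlier results of these data known, and the histone set after them. Genes were named by a rule: the 15 largest called differences in each direction among autosomal genes with a symbol, libraries that do not overlap and at least 5 CPM, up to 4 members of each list by p, 5 genes of each time class and 5 of each interaction and direction. Asns, Psph, Cyp51, Tm7sf2, Stard4, Tnfsf10 and Ahr fall outside it and complete the called members of small lists. Anln and Kif20a complete the mitosis list, and Cish, Tgfbr2, Pmepa1, Ski, Cdc20, Espl1, Prc1 and Kif23 were chosen after their values were seen. A few genes are not reported here by name, but stay in the counts and medians of their lists. Promoter sequences came from RefSeq.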

Additional observations from a re-analysis of the deposited data

Results flagged for a closer look

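Several changes between 4 h and 24 h differed between genotypes by the interaction test. Against TGFBRII KO the WT change was above for 245 genes and below for 380. Of the genes named, it was above by 5.51 (log2) for Hsf2bp, 3.76 for Itgae, 3.60 for Acsl1, 3.48 for Per2, 3.02 for Ankrd23 and 2.75 for Pprc1. It was below for Fancd2os (-4.94), Rnf183 (-4.36), Fads2 (-4.32), H2ac23 (-4.18), Fancd2 (-3.66), Nuf2 (-3.39) and Kif11 (-3.12). It was also below for Rsad2 (-2.24), Pmvk (-1.75), Mcm3 (-1.17) and Serpinb6b (-1.14). Against CIS KO the WT change was above for 5 genes, Pprc1 by 1.85, Ccl3 by 1.13, Xpa by 0.78, Wdr43 by 0.71 and Nop58 by 0.61, and below for 97. Among those 97 were Ticrr (-3.40), Nuf2 (-3.01), Ska3 (-2.84), Esco2 (-2.83), Chek1 (-2.79), Kif11 (-2.14) and Mcm3 (-1.45).

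In 17 of the 272 groups of 4 libraries that were checked for the genes named, 1 library stood far from the other 3. For normally spread values chance gives about 1 in 20. That rate does not apply to Rnf183, Rnase6, Ccdc74a and Scn3b below, which had 1 or 2 counts over the group. At 24 h the highest library was apart for Kif11 (32.4 CPM), Cdkn1a (239 CPM), Rgs2 (137 CPM), Brca1 (12.1 CPM), H3c3 (4.47 CPM) and Rnf183 (1.08 CPM). In unstimulated cells the highest was apart for Stard4 (243 CPM), Psph (81.3 CPM), Rgs2 (66.2 CPM), Smurf1 (56.2 CPM), Rnase6 (2.5 CPM), Ccdc74a (1.68 CPM) and Scn3b (1.27 CPM). The lowest was apart for Npm1 (351 CPM), Gzme (297 CPM), Kif23 (99.4 CPM) and Dusp7 (52.0 CPM).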

How the results depend on the processing

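The 24 h against 4 h counts of 291 higher and 442 lower genes were 52 and 140 with the 6 WT libraries alone in the fit and 102 and 367 with DESeq2. Leaving out single libraries gave 90 to 308 higher and 282 to 441 lower. Against TGFBRII KO (245 above, 380 below), DESeq2 gave 134 above, and leaving out libraries 108 to 286 above and 198 to 388 below. Against CIS KO (5 above, 97 below), DESeq2 gave 3 above, and leaving out libraries 0 to 7 above and 12 to 101 below. Library size scaling gave 63 transient rises and 171 transient falls, and depth as a covariate 129 late rises and 17 continued rises. Leaving out libraries gave 40 to 292 transient rises, 34 to 112 transient falls, 200 to 371 sustained rises, 140 to 232 sustained falls, 28 to 102 late rises, 97 to 239 late falls, 2 to 14 continued rises and 2 to 25 continued falls. Leaving out single libraries took H3c3 from -4.07 to 3.65 and Ticrr from -2.25 to 0.29 (log2), in both cases above 0 without 4 h replicate 4. The cause of these shifts was not tested, apart from fewer libraries in the fits that leave them out.

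The labels give replicate numbers. Deviations of same-numbered 4 h and 24 h libraries correlated at 0.08 and -0.03 in WT, 0.04 to 0.125 in TGFBRII KO and -0.11 to 0.27 in CIS KO. The deviations of the 2 WT libraries at 4 h mirror each other (-0.171 and 0.171 against 24 h replicate 2). These values therefore cannot decide whether the numbers are pairs, and the main fit did not pair them. Y-linked sums followed the number in part: they were 379 to 446 CPM in number 2 of TGFBRII KO against 189 to 249 CPM in its others, and 92.3 and 128 CPM in number 2 of WT against 1.4 to 20.2 CPM. Within number 4 of WT they were 1.4 CPM unstimulated and 1.47 CPM at 24 h, but 19.8 CPM at 4 h. With the replicate block, 149 genes were higher and 314 lower between the times, 152 were above TGFBRII KO and 3 above CIS KO. The block gave 51 transient rises, 57 transient falls, 138 sustained falls, 41 late rises, 5 continued rises and 5 continued falls. It ended 39 of the 113 calls named between the times. It also ended the differences from TGFBRII KO of Acsl1 (adjusted p = 0.0544), Ankrd23 (0.0526), H2ac23, Hsf2bp and Itgae and those from CIS KO of Nop58 and Wdr43, and it called 8 histone genes below TGFBRII KO in place of 14.

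Of the 197 genes examined by name, 119 were called between the times. Of these, 117 kept their sign in every alternative that was run and 27 their call. The main limits are the 2 libraries at 4 h, the shallow 4 h replicate 1, and the lack of an untreated 24 h culture among the samples analysed here.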
